A study of Mus musculus with 105 samples.

Results

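Chemokine genes were followed by RNA-seq through cultured tumour lines of the mouse, melanocytes and 12 healthy tissues. The members are the protein-coding genes whose GENCODE symbol is Ccl, Cxcl, Cx3cl or Xcl followed by a number and at most 1 letter. The rule found 37 of the 53379 gene IDs in the count table. Cxcl11, annotated as a polymorphic pseudogene, was not taken, and the platelet chemokines Pf4 and Ppbp carry other symbols. Of the 37 genes, 12 lie on chromosome 11 and 10 on chromosome 5.

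The tested lines carried the label Setdb1KO, written KO here, and were set against lines labelled Ctrl and, further, against unedited lines labelled WT. Setdb1 encodes a histone methyltransferase that silences repeats. The lines are B16 and B16OVA (melanoma), MCA101OVA (fibrosarcoma, titled MCAOVA) and MC38 (colon adenocarcinoma), where OVA marks the model antigen ovalbumin. B16OVA has 6 libraries per condition and each other line 3, which makes 45. Another 7 single WT libraries of run B176 (MC38, MC38GFP, MC38OVA, MCA101, MCA101OVA, B16 and B16OVA) have no replicate. Healthy samples are 5 libraries of melanocytes cultured from new-born mice and 48 libraries of 12 tissues of WT female mice, 4 per tissue. All samples are labelled C57BL/6; ages of the tissue donors are not given. The growth protocol of the lines names puromycin for every condition, WT included. The labels do not say what the Ctrl cells received, whether a KO line is a clone or a pool, or whether libraries come from separate cultures, so the spread behind each p-value may be technical.

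Chemokines are small secreted proteins that bind G-protein-coupled receptors on leukocytes and set the direction in which these cells move. Inflammatory chemokines such as Ccl2 and Cxcl1 are switched on by NF-kB, and Cxcl10 and Ccl5 also by interferon and its regulatory factors. Homeostatic chemokines such as Ccl21a, Ccl19, Cxcl13 and Ccl25 are made continuously by stromal and epithelial cells of lymphoid organs and mucosa. In tumours, tumour cells, stroma and leukocytes can all make chemokines; the lines here were grown in culture.

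Promoter sequence was read from RefSeq on GRCm38.p6 for 27 of the 37 genes, as the 250 bases before and 50 bases after each annotated start. A pair of inducible genes are shown, since their levels separate libraries and lines in the results that follow: Cxcl10, on chr5:92348890-92349139 of the minus strand, and Cxcl1, on chr5:90890995-90891244 of the plus strand. Each line holds the 250 bases before the start, 5′ to 3′. Capitals mark matches to an NF-kB core (GGG, any 5 bases, CC) or to an interferon-response core (GAAA, any 2 bases, GAAA), each searched on both strands.
Cxcl10: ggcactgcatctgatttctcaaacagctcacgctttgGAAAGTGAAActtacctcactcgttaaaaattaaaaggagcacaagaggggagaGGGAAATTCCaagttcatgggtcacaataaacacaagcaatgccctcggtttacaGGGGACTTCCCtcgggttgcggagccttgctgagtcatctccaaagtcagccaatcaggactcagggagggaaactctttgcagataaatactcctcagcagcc
Cxcl1: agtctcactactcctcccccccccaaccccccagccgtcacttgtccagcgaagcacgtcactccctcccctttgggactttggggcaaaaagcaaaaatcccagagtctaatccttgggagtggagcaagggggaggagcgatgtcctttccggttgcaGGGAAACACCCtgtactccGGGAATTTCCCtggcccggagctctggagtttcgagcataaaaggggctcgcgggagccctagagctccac
In Cxcl10 the interferon-response core starts at base -213 and NF-kB cores at -159, -104 and -103, of which the last 2 overlap. Cxcl1 holds 4 NF-kB matches in overlapping pairs and no interferon-response match. At least 1 window of 15 of the 27 genes (55.6%) held the NF-kB core, against 53.5% of all 27025 genes with a window. The interferon-response core was in 3 of the 27 (11.1%: Cxcl10, Ccl19 and Cxcl14) against 3.99% of all genes. A match is a string of letters and was not tested as a binding site.

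Library totals were 17186211 to 50393024 counts in the 45 libraries, 19863405 to 30593253 in melanocytes, 53591239 to 254103370 in tissues and 36190860 to 58176033 in run B176. Levels are counts scaled to a library total of 1000000 (CPM), and per kilobase of exon where genes are compared with each other. Setdb1 averaged 17.1, 33.5, 27.9 and 73.2 CPM in KO libraries of B16, B16OVA, MCA101OVA and MC38, against 62.2, 70.4, 68.0 and 100.8 CPM in Ctrl, so transcript was still present in every KO group. In MC38 set 4 the library labelled KO had more Setdb1 (60.05 CPM) than the library labelled Ctrl (54.9 CPM, replicate 1). B16OVA Ctrl replicate 2 was low at 21.1 CPM, beside 15.6 CPM in the KO of its set, and in B16OVA set 5 the library labelled KO had 49.9 CPM against 44.7 CPM in WT. Leaving out any 1 of these libraries kept the counts of members called between KO and Ctrl at 0. Of 36 tissue markers, 35 were highest in the labelled tissue. The replicated libraries labelled MC38 did not match the single libraries of that label. Over 12453 genes, their correlation with the single MC38, MC38GFP and MC38OVA libraries was 0.817 to 0.838 by group mean, and with the single MCA101 and MCA101OVA libraries 0.943 to 0.966. Of 80 genes found in all single MC38 libraries and near 0 in the MCA101 ones, 0 were on in the WT and Ctrl libraries labelled MC38 and 7 in KO. Of 50 genes with the reverse pattern, 50 were on. Krt8, for example, ranged from 242 to 511 CPM in WT libraries labelled MC38 and from 811 to 940 CPM in MCA101OVA WT. It was 0.068 CPM in the single MC38 library and 311.9 CPM in single MCA101. Krt8 was listed as a gene of colon carcinoma and simple epithelium, as was Epcam, which was at most 0.031 CPM in all of these. Which of the labels hold was not tested. Results for the libraries labelled MC38 are therefore given by label, and are not taken as those of an independent tumour type.

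The tumour lines used few chemokine genes. In the 45 libraries 11 genes reached a group mean of 1 CPM, 26 did not, and 10 of these had 0 counts in every library. Cxcl10, which draws T cells and natural killer cells through Cxcr3, and Ccl5, which attracts T cells and monocytes, were above 1 CPM by mean in all 12 line and condition groups, as were Ccl25 and Ccl27a. Per kilobase, Ccl5 reached 35.9 CPM and Cxcl10 25.2 CPM in MCA101OVA KO, where each had its highest group mean. Ccl25, a thymic and gut chemokine that shares 204 bases with Elavl1 on the opposite strand, stayed between 4.24 and 22.04 CPM in every library. Ccl27a, known for skin homing through Ccr10, lay between 1.64 and 13.4 CPM; it has a near-identical copy, Ccl27b, which had 0 counts throughout. Cx3cl1, the membrane-anchored ligand of Cx3cr1, reached 1 CPM in 11 groups. The others were Cxcl1 (6 groups), the monocyte chemokine Ccl2 (5), its neighbour Ccl7 (3), Ccl28 (3), Ccl9 (2) and Ccl20 (1). Cxcl9, the partner of Cxcl10, never exceeded 0.0888 CPM, and Cxcl12 never exceeded 0.0595 CPM. Of 22 leukocyte marker genes, 14 to 17 were under 0.1 CPM in every library of these groups. The rest were not. In B16OVA WT libraries of run D176, for example, Cd68 was 1.75 to 4.24 CPM, Lyz2 1.55 to 2.2 CPM and Fcer1g 0.86 to 1.39 CPM. The counting does not state a strand setting, and 7 members lie wholly inside a gene of the opposite strand: Cxcl10 in Art3, Ccl2 in Gm17268, Ccl6 in E230016K23Rik, Cxcl17 in 4732471J01Rik, Xcl1 in Gm20743, and Ccl19 and Ccl21a in 4930578G10Rik. Reads of such overlaps cannot be assigned with certainty.

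**Figure D1:**
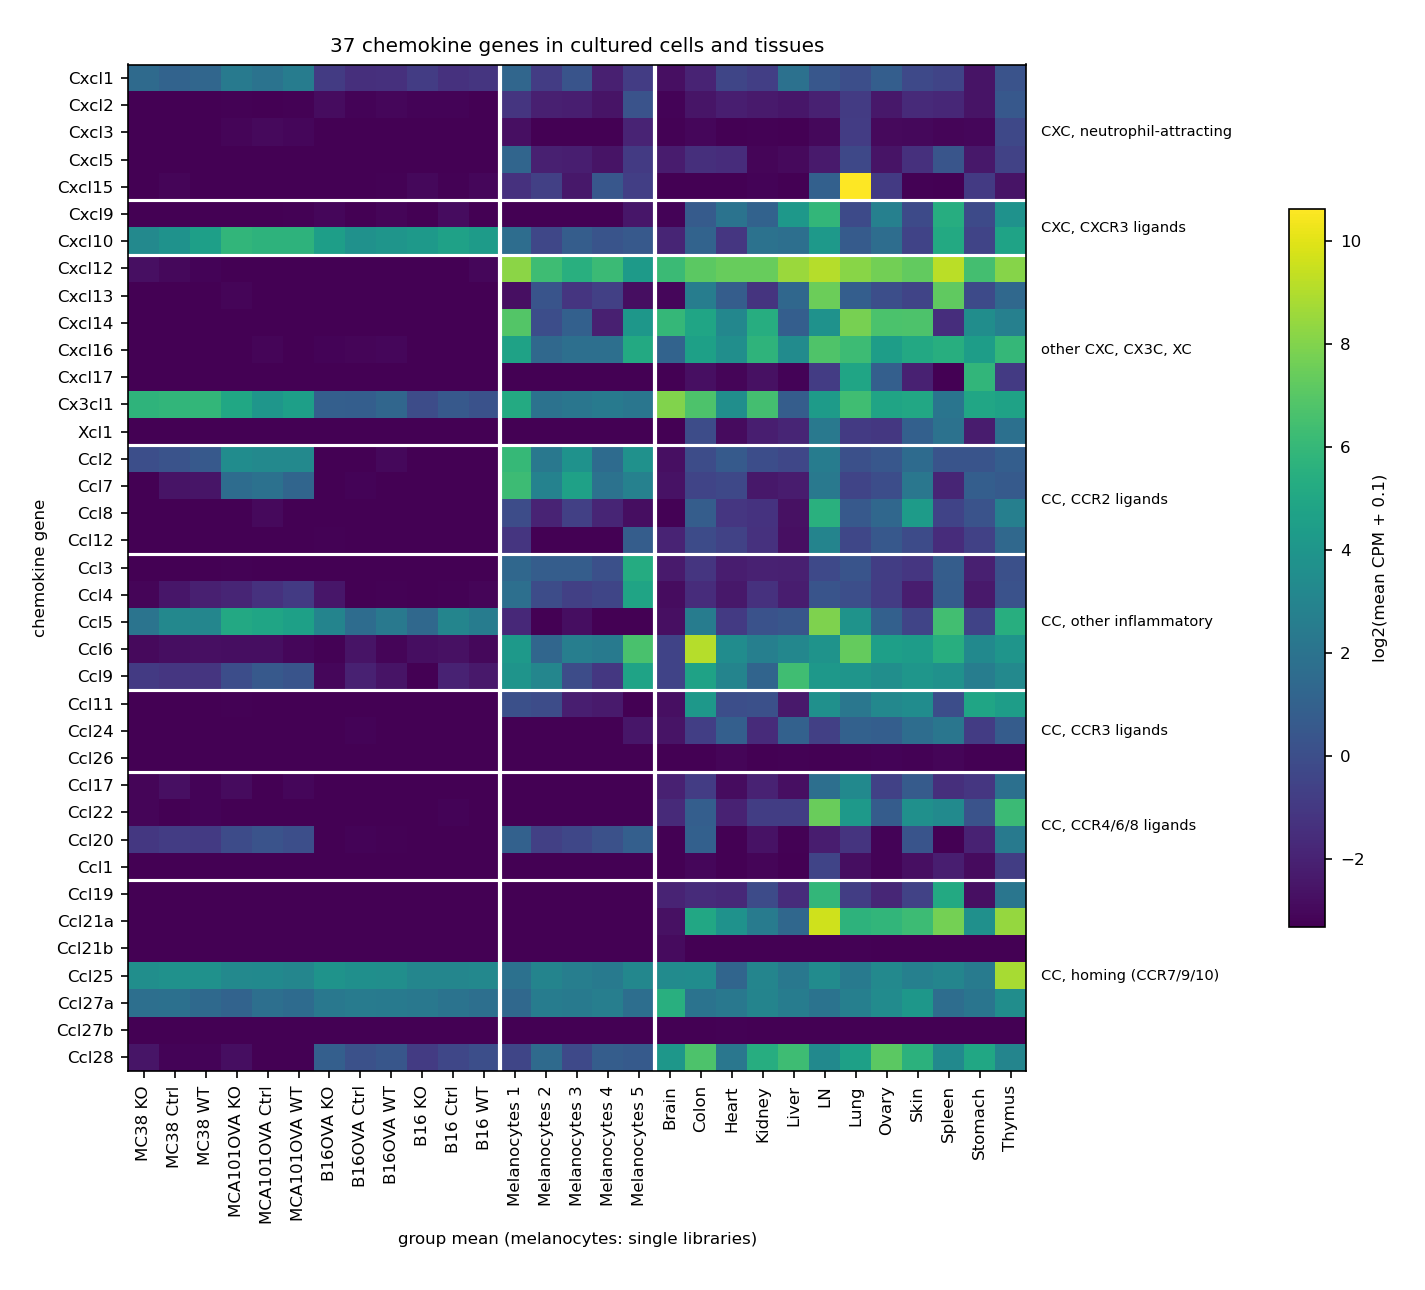
Levels of the 37 chemokine genes, grouped by receptor or role (rows), in 12 line and condition groups, 5 melanocyte libraries and 12 tissues (columns; colour is log2 of mean CPM + 0.1). Cxcl10, Ccl5, Ccl25 and Ccl27a have colour in every cultured group, Ccl2 and Ccl7 are strongest among the lines in MCA101OVA, and Cxcl15 in lung, at 1575 CPM, is the brightest cell.

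The first comparison asked whether loss of Setdb1 changed chemokine transcripts. With edgeR's quasi-likelihood test (Benjamini-Hochberg adjustment over 16809 genes, adjusted p under 0.05), 0 of the 12 tested members were called between KO and Ctrl in any of the 4 lines, where 0.69%, 1.05%, 0.345% and 0.464% of genes were called in B16, B16OVA, MCA101OVA and MC38. DESeq2 also called 0 members in each line. Before adjustment, edgeR gave 1, 2, 1 and 0 members a p under 0.05 in B16, B16OVA, MCA101OVA and MC38. The median log2 fold change of the members was -0.14, 0.13, -0.12 and -0.28, against 0.00, -0.01, 0.01 and -0.01 over all tested genes. At backgrounds this low, a count of 0 among 12 genes is near the background share and is no result about the members as a class. Interferon-response genes (22 tested) and NF-kB target genes (21 tested) likewise gave 0 calls between KO and Ctrl in each line.

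Ccl9, a macrophage-attracting chemokine found in rodents, came nearest. In B16 it had 0 counts in all 3 KO libraries and 0.021, 0.270 and 0.178 CPM in Ctrl (16 counts in all). Against a floor of 3 counts over the group, the KO level was at least 5.76-fold lower, and at least 3.56-fold without Ctrl replicate 2 (edgeR adjusted p = 0.667). In B16OVA there were 3 counts over 6 KO libraries and 16 over 6 Ctrl libraries (log2 fold change -2.94, SE 1.20, edgeR adjusted p = 0.511). With the library sets as a replicate block, Ccl9 was called lower in KO in B16 (log2 fold change -5.14, SE 1.18, edgeR adjusted p = 0.0238, 3 of 3 sets) and in B16OVA (-2.92, SE 0.77, adjusted p = 0.0496), where 0.869% and 1.58% of genes were called. In B16OVA the KO library was lower in 3 of 6 sets, both were at 0 in 2 sets, and KO was higher in set 1 (0.031 against 0 CPM). Ctrl replicate 2, whose slope of log CPM on transcript length was -0.72, held 10 of the 16 Ctrl counts, and without it the blocked B16OVA call was lost (-2.08, SE 0.91, edgeR adjusted p = 0.657). The blocked B16 call was lost without the 7 libraries of low slope (under -0.15), of which KO replicate 2 is the one in B16 (-4.93, SE 1.48, edgeR adjusted p = 0.216). The block gave 0 members in MCA101OVA (0.494% of genes called) and MC38 (0.761%). In runs B253 and B262 a library set is a series of neighbouring library numbers that holds each condition of a line once. Run D176, which holds all replicated MC38 libraries, is numbered by condition. There a set joins libraries of equal place within each condition, which is an assumed pairing. These calls rest on levels of at most 0.581 CPM. In MCA101OVA, where Ccl9 was higher, KO libraries had 0.867, 1.74 and 0.094 CPM and Ctrl libraries 2.45, 1.64 and 0.114 CPM, and the groups overlapped (-0.89, SE 0.92, adjusted p = 0.893). Ccl4, an inflammatory chemokine made by macrophages and T cells, had 15 counts in B16OVA KO and 0 in Ctrl, at least 4.23-fold higher (edgeR adjusted p = 0.599); the counts came from KO sets 2 (11 counts) and 5 (4 counts), and without KO replicate 2 the bound was 1.33-fold.

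Ccl5 had 1.07, 4.05 and 2.38 CPM in B16 KO libraries of sets 1, 2 and 3, against 4.22, 14.4 and 5.15 CPM in Ctrl. The KO library was lower in 3 of 3 sets, and the groups did not overlap, with the highest KO library at 4.05 CPM and the lowest Ctrl library at 4.22 CPM. The log2 fold change was -1.76 (SE 1.01, edgeR adjusted p = 1). Cx3cl1 in B16 was 0.971, 0.729 and 0.886 CPM in KO libraries, against 1.68, 1.08 and 1.39 CPM in Ctrl. It too was lower in KO in 3 of 3 sets with no overlap, and was not called (-0.65, SE 0.45, edgeR adjusted p = 1). In B16OVA, Ccl5 ranged from 0.887 to 27.7 CPM in KO and from 1.104 to 6.26 CPM in Ctrl, with overlapping groups (0.87, SE 0.71, edgeR adjusted p = 0.86). Ccl5 in the libraries labelled MC38 was 7.82, 3.63 and 0.465 CPM in KO, against 21.4, 4.37 and 1.05 CPM in Ctrl, and the groups overlapped (-1.29, SE 0.99, adjusted p = 1). Cxcl10 in the same libraries was 16.03, 8.67 and 3.26 CPM in KO, against 24.7, 12.4 and 4.06 CPM in Ctrl (-0.66, SE 0.77, adjusted p = 1). KO was lower within all 3 sets for both genes. Without MC38 Ctrl replicate 1, the library with less Setdb1 than its KO, the fit that ignores library sets gave differences of 0.55 for Ccl5 and 0.17 for Cxcl10, while the fit with sets as a replicate block kept them at -0.57 (SE 0.86, edgeR adjusted p = 1) and -0.504 (SE 0.55, adjusted p = 1). Ccl25 in these libraries was 10.4, 10.9 and 13.4 CPM in KO, against 12.1, 12.7 and 14.96 CPM in Ctrl, lower in KO in 3 of 3 sets with overlapping groups (-0.27, SE 0.34, edgeR adjusted p = 1). In MCA101OVA, Cx3cl1 was 18.4, 55.4 and 20.2 CPM in KO and 24.2, 8.59 and 15.1 CPM in Ctrl, with overlapping groups (0.93, SE 0.43, edgeR adjusted p = 0.878). In B16OVA, Ccl28 ranged from 0.524 to 3.999 CPM in KO (median 1.63) and from 0 to 2.18 CPM in Ctrl (median 0.927), and was not called (0.79, SE 0.48, adjusted p = 0.76). Ccl27a was not called in any line, with differences of 0.32 (SE 0.56) in B16, -0.43 (SE 0.40) in B16OVA, -0.87 (SE 0.58) in MCA101OVA and -0.17 (SE 0.57) in MC38. The sign turned in B16 without KO replicate 2 (-0.075), in B16OVA without Ctrl replicate 2 (0.22) and in MCA101OVA without Ctrl replicate 2 (0.19), so no direction is read from them. Cxcl1 was 3.71, 2.32 and 2.095 CPM in MC38 KO, against 2.52, 1.899 and 1.84 CPM in Ctrl, and 6.19, 5.31 and 4.045 CPM in MCA101OVA KO, against 4.08, 3.84 and 3.51 CPM in Ctrl. KO was higher in 3 of 3 sets in both lines, with overlapping groups. Its log2 fold changes were 0.73 (SE 0.60), 0.65 (SE 0.46), 0.30 (SE 0.53) and 0.30 (SE 0.54) in B16, B16OVA, MCA101OVA and MC38, and none was called. The share of all genes with no overlap, or with KO on the same side in 3 of 3 sets, was not counted. Such orders are therefore no result about these genes.

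Between Ctrl and WT, neither edgeR nor DESeq2 called any of the 12 members in any line (0 of 12), where edgeR called 0% of all genes. In B16OVA 1 member had an unadjusted p under 0.05 and in the other lines 0. The KO effects of B16, MCA101OVA and MC38 were also set against that of B16OVA as an interaction. Again 0 of 12 members were called by edgeR and by DESeq2, with 1 member per contrast at an unadjusted p under 0.05, in backgrounds of 0%, 0.101% and 0.262%.

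Libraries of 1 line differed in Cxcl10 and Ccl5 by library set. In MCA101OVA, Cxcl10 was 8.62, 54.6 and 107 CPM in KO libraries of sets 1, 2 and 3, against 6.71, 16.99 and 129 CPM in Ctrl and 6.51, 19.9 and 130 CPM in WT. Every library of set 3 was above every library of set 2, which in turn was above every library of set 1, whatever the condition. Ccl5 followed with 2.06, 28.4 and 72.99 CPM in KO, against 2.76, 12.6 and 72.9 CPM in Ctrl and 2.00, 15.9 and 55.0 CPM in WT. Ccl2 and Ccl9 had the opposite order at the high end: Ccl2 was 13.1, 17.1 and 3.01 CPM in KO, against 10.7, 12.1 and 5.69 CPM in Ctrl and 15.2, 8.47 and 4.54 CPM in WT. Set 3 was the lowest in each condition.

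In the libraries labelled MC38, Cxcl10 was highest in set 4 and lowest in set 6 in all 3 conditions, with WT values of 44.9, 19.4 and 6.19 CPM. Ccl5 kept the same order, with WT values of 16.6, 7.13 and 1.49 CPM. In B16OVA, Cxcl10 ranged from 5.5 to 59.3 CPM in KO (median 16.3), from 5.75 to 34.7 CPM in Ctrl (median 10.1) and from 5.21 to 35.4 CPM in WT (median 12.4). Its Ctrl and WT libraries of set 3 stood apart from the other 5 of their group, while in KO the libraries of set 2 (59.3 CPM) and set 5 (26.9 CPM) were highest. The same 2 KO libraries were highest for Ccl5, at 27.7 and 11.9 CPM, where the median of the 6 KO libraries was 2.74 CPM.

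An F test of library sets within line, chosen after these values were seen, called 8 of 12 members in MCA101OVA, where 45.7% of all genes were called. Cxcl10 (edgeR adjusted p = 1.32e-06), Ccl9 (1.94e-05) and Ccl5 (5.23e-05) led, with Ccl2, Ccl20, Ccl7, Ccl4 and Ccl27a. B16OVA gave 5 of 12 (Cxcl1, Ccl9, Cxcl10, Ccl27a and Ccl5) in a background of 55.0%, so that share is no higher than over all genes. In MC38, 2 of 12 were called, Cxcl10 (adjusted p = 0.0025) and Ccl5 (0.00371), against 4.59% of all genes. B16 gave 0 of 12 (12.2% of genes called); 2 members had an unadjusted p under 0.05, and DESeq2 was not run for this test. Interferon-induced genes moved with Cxcl10 and Ccl5: the mean of Isg15 over sets 1, 2 and 3 of MCA101OVA was 8.05, 230 and 468 CPM, and over sets 4, 5 and 6 of MC38 89.9, 10.5 and 4.57 CPM. Means of Ifit1 were 5.12, 48.2 and 88.5 CPM in MCA101OVA and 51.9, 17.8 and 4.45 CPM in MC38. Library sets 1, 2 and 3 differ in run code or library number, and what else differed between them was not tested.

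**Figure D2:**
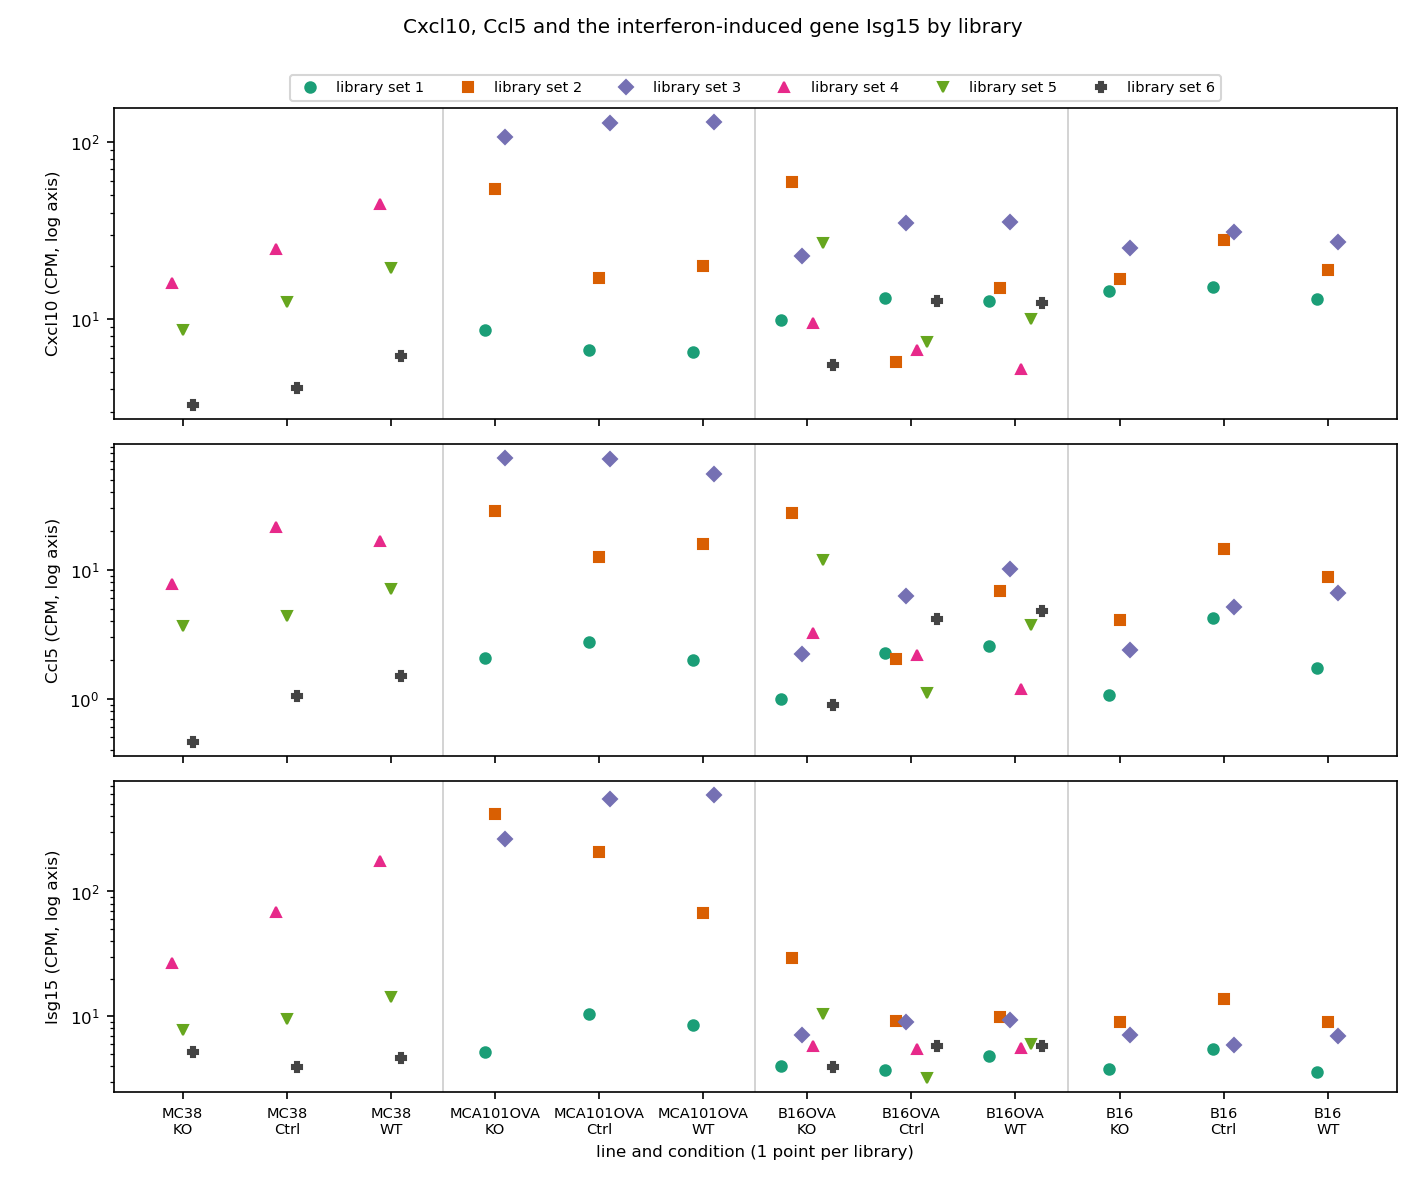
Cxcl10, Ccl5 and the interferon-induced gene Isg15 by line and condition (log axis, CPM; each point 1 library; colour and shape give the library set). In MCA101OVA the set 3 libraries hold 107 to 130 CPM of Cxcl10 and the set 1 libraries 6.51 to 8.62 CPM in all 3 conditions, and in MC38 set 6 is lowest for each gene.

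Between unedited lines, Cx3cl1, Cxcl1, Ccl2 and Ccl20 were higher in MC38 and MCA101OVA than in B16OVA, and Ccl28 was lower. MC38 shares run D176 with 3 of the 6 B16OVA libraries and MCA101OVA shares runs B253 and B262 with the other 3, and the fit held a term for run. Of 12 members 8 were called in MC38 against B16OVA (7 higher and 1 lower, where 18.2% of all genes were higher, 25.9% lower and 44.1% called) and 8 in MCA101OVA against B16OVA (7 higher and 1 lower, where 19% of all genes were higher, 24.2% lower and 43.2% called). Both comparisons share the B16OVA libraries. Several of the 12, such as Ccl2, Ccl7 and Ccl20, passed the low-count filter through the lines in which they are high, so these counts support nothing by themselves.

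Cx3cl1 was 92.0, 56.3 and 30.8 CPM in WT libraries labelled MC38, 21.8, 30.4 and 16.99 CPM in MCA101OVA, and 1.499 to 3.46 CPM in the 6 B16OVA libraries (median 2.26). The single MCA101 library of run B176, at 52.2 CPM, lay within the range of the libraries labelled MC38. It was higher by 4.84 (SE 0.40, edgeR adjusted p = 8.16e-13) in MC38 and by 2.99 (SE 0.39, adjusted p = 4.23e-08) in MCA101OVA than in B16OVA on the log2 scale. Cxcl1, a neutrophil chemokine, was 2.81, 2.39 and 1.90 CPM in MC38, 5.11, 7.99 and 4.02 CPM in MCA101OVA and 0.033 to 0.851 CPM in B16OVA (median 0.213). It was higher by 3.91 (SE 0.53, adjusted p = 1.02e-07) in MC38 and by 3.68 (SE 0.52, adjusted p = 2.06e-07) in MCA101OVA. Both lines lay above every B16OVA library for both genes.

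The monocyte chemokines Ccl2 and Ccl7, neighbours on chromosome 11, were nearly silent in melanoma. Ccl2 was 1.74, 1.07 and 1.40 CPM in MC38, 15.2, 8.47 and 4.54 CPM in MCA101OVA, and in B16OVA 4 counts in 1 of 6 libraries (0.128 CPM) and 0 in the rest. B16 had 0 counts of Ccl2 in all 9 libraries. It was called higher in MC38 (edgeR adjusted p = 0.00021) and in MCA101OVA (adjusted p = 2.83e-07); its fitted fold changes rest on those 4 counts. Ccl7 was 2.97, 2.70 and 1.09 CPM in MCA101OVA (243 counts) and 0 in B16OVA WT, at least 144-fold higher (adjusted p = 0.000121). In MC38 it had 7 counts, at least 4.38-fold over B16OVA (adjusted p = 0.0431). That call was lost with DESeq2 (log2 fold change 3.79), without libraries of low length slope (5.27) and without any of 6 libraries, each left out in turn (B16OVA WT replicates 3, 4, 5 and 6, MC38 WT replicates 1 and 2), while the log2 fold change of 4.93 stayed between 4.36 and 5.14 in these 6 fits. Ccl20, the Ccr6 ligand, had 42 counts in MC38 WT (0.414, 0.283 and 0.555 CPM) and 94 in MCA101OVA WT (0.418, 0.137 and 2.18 CPM), against 1 in B16OVA WT, and was called higher in both (edgeR adjusted p = 0.0004 in MC38 and 3.72e-05 in MCA101OVA). In Ccl20, MCA101OVA WT against B16OVA WT, replicate 3 of MCA101OVA held 72 of the 94 counts, and without it the log2 fold change of 6.43 became 5.12 (edgeR adjusted p = 0.000979).

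Ccl9 was called higher in MC38 (0.118, 0.408 and 0.526 CPM; edgeR adjusted p = 0.0027) and in MCA101OVA (1.84, 1.502 and 0.121 CPM; adjusted p = 0.0112) than in B16OVA (0 to 0.190 CPM), with overlap in both cases. The MC38 call was lost with no run term, where the log2 fold change of 4.37 became 2.28 (edgeR adjusted p = 0.0763). The MCA101OVA call was lost without B16OVA WT replicate 1 or MCA101OVA WT replicate 1, where the log2 fold change of 3.27 became 2.88 and 2.41. Ccl4 was called higher in both lines by edgeR (adjusted p = 0.0263 in MC38 and 0.0111 in MCA101OVA) and in neither by DESeq2, where the log2 fold changes were 4.42 in MC38 and 4.63 in MCA101OVA in place of 4.65 and 4.74. The MC38 call of Ccl4 was also lost with no run term (3.79), without libraries of low length slope (3.14) and without MC38 WT replicate 1 (3.24). Ccl28, a mucosal chemokine that acts through Ccr3 and Ccr10, went the other way. It had 0 counts in MCA101OVA WT against 232 in B16OVA WT, at least 43.4-fold lower (adjusted p = 6.26e-06). In MC38 WT it had 0.030, 0 and 0 CPM, against 0.233 to 2.94 CPM in B16OVA (log2 fold change -7.03, SE 1.02, adjusted p = 7.25e-07).

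Cxcl10, Ccl5, Ccl25 and Ccl27a were not called in either comparison. For Cxcl10 the differences were 1.17 (SE 0.68, edgeR adjusted p = 0.173) in MC38 and 0.95 (SE 0.69, adjusted p = 0.287) in MCA101OVA, beside the spread between library sets given above. MC38 against MCA101OVA gave 0 of 12 (1.13% of genes called) by edgeR, where 2 members had a p under 0.05 before adjustment, and 1 of 12 by DESeq2. Cx3cl1 was nearest, higher in MC38 by 1.85 (SE 0.50, adjusted p = 0.0589), and was past the threshold without MC38 WT replicate 3. The 2 groups share no run. B16OVA against B16 gave 0 of 12 (0.0238% of genes called), by DESeq2 also 0; Cx3cl1 was 1.499 to 3.46 CPM in B16OVA WT, against 1.26, 0.776 and 1.11 CPM in B16 WT (1.49, SE 0.43, edgeR adjusted p = 0.725), and was the 1 member with an unadjusted p under 0.05.

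**Figure D3:**
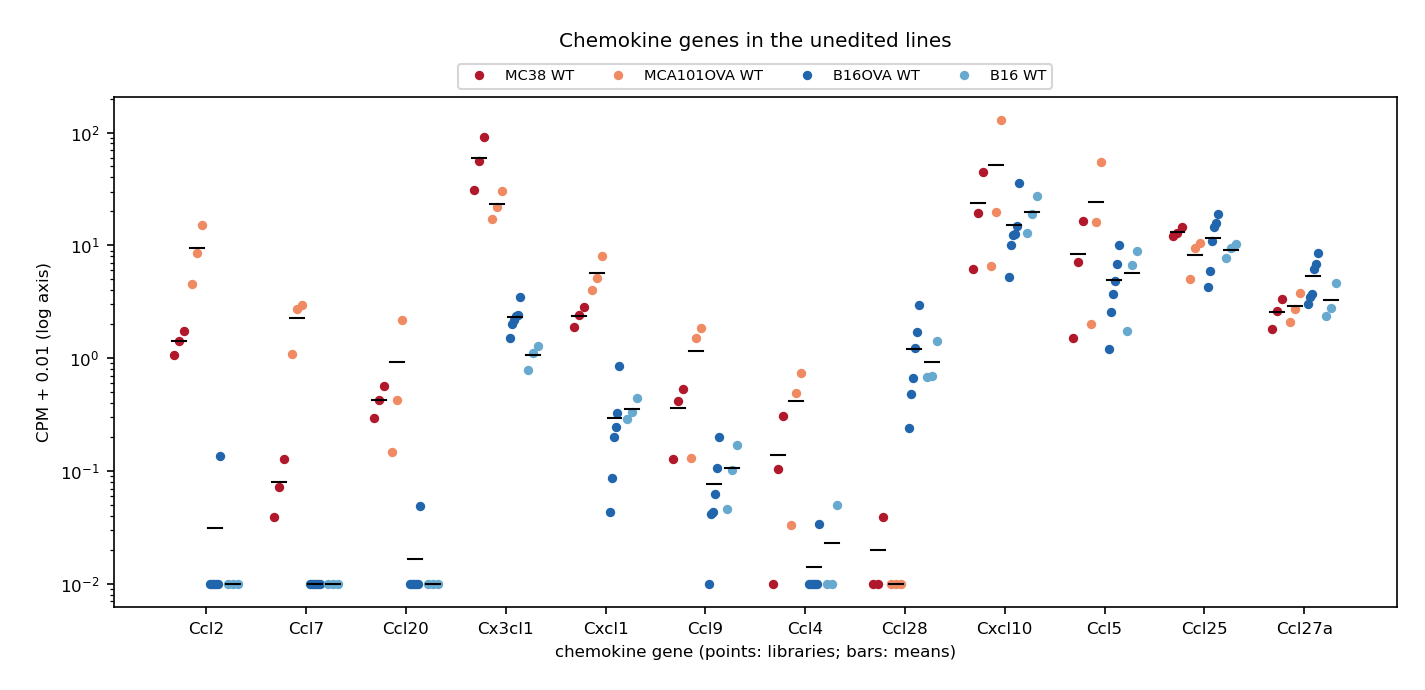
The 12 tested chemokine genes in WT lines (log axis, CPM + 0.01; points are libraries and bars are group means). Cx3cl1 lies at 30.8 to 92.0 CPM in MC38 and 16.99 to 30.4 CPM in MCA101OVA, both above the 1.499 to 3.46 CPM of B16OVA, and Ccl28 is present in B16OVA and B16 and at or near 0 in the other lines.

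Of 22 interferon-response genes, 13 were called higher in MC38 and 14 in MCA101OVA than in B16OVA. Over all genes the shares were 18.2% and 19%. Of 21 NF-kB genes, 11 and 12 were higher and 2 lower in each comparison (25.9% and 24.2% of all genes lower). Genes that are high in 1 line can pass the low-count filter through it, and both comparisons share the B16OVA libraries. These counts therefore support nothing by themselves. Isg15 in WT libraries was 174.4, 14.3 and 4.61 CPM in sets 4, 5 and 6 of MC38, and 8.51, 67.5 and 595 CPM in sets 1, 2 and 3 of MCA101OVA. Of 23 chemokine receptor genes 3 were tested in the lines. Cxcr3, the receptor of Cxcl10, was lower in MC38 (log2 fold change -7.90, edgeR adjusted p = 2.23e-07) than in B16OVA, as were Ccrl2 (-5.02, adjusted p = 0.0255) and the scavenger Ackr3 (-1.85, adjusted p = 0.0439). Cxcr3 was highest in B16 KO, at 1.86 ± 0.872 CPM (SD, n = 3), and Ackr3 in B16OVA Ctrl at 2.60 ± 1.78 CPM (n = 6). The other 20 receptors did not reach the filter in the lines.

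The single libraries of run B176 had other levels of several members. Intervals are exact 95% Poisson intervals and cover counting error only. Ccl2 was 375 CPM in MC38OVA (369 to 381), 30.7 CPM in MC38GFP (29.3 to 32.3) and 4.198 CPM in MC38 (3.62 to 4.85), and Ccl7 30.6, 2.93 and 1.16 CPM. Cxcl10 was 106, 175 and 127 CPM in MC38OVA, MC38GFP and MC38, above every replicated library labelled MC38 (highest 44.9 CPM). Ccl5 was 93.5, 77.9 and 34.5 CPM. Cx3cl1 was 11.525, 3.04 and 1.88 CPM in these 3, below every replicated library labelled MC38 (lowest 29.9 CPM), and 52.2 CPM (50.3 to 54.1) in single MCA101. Ccl28 was 0.748, 1.64 and 1.95 CPM in the 3 single MC38 libraries. With 1 library each there is no replicate check of these differences.

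B16OVA cells were set against melanocytes, the normal cells of the lineage, in libraries that share run D176. Of 18 members tested, 13 were called by edgeR (2 higher in B16OVA and 11 lower, where 14.3% of 15172 genes were higher, 19.5% lower and 33.8% called). Most of the 11 passed the filter through melanocytes, where they are high. Ccl5 was 1.19, 3.73 and 4.78 CPM in B16OVA WT and 0.201, 0, 0.043, 0 and 0 CPM in melanocyte libraries 1 to 5. Cxcl10 was 5.21, 10.0 and 12.3 CPM in B16OVA, and 3.12, 0.686, 1.64, 1.13 and 1.36 CPM in melanocytes. Every B16OVA library was above every melanocyte library for both, with log2 fold changes of 6.19 (SE 1.14, edgeR adjusted p = 0.00342) and 2.61 (SE 0.60, adjusted p = 0.00956).

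The stromal chemokine Cxcl12, ligand of Cxcr4 and Ackr3, had 0 counts in the 3 B16OVA libraries and 288, 77.2, 44.5, 72.6 and 19.1 CPM in melanocyte libraries 1 to 5. It was at least 2682-fold lower in B16OVA (edgeR adjusted p = 0.00175). Ccl7 had 0 counts in B16OVA, against 74.5, 7.26, 25.1, 3.76 and 6.82 CPM (at least 587-fold lower, adjusted p = 0.00514). Ccl2 had 4 counts in B16OVA, against 65.9, 4.67, 13.9, 2.88 and 13.01 CPM in melanocytes (log2 fold change -8.76, SE 1.73, adjusted p = 0.00469). Melanocyte library 1 was highest in all 3, and without it the bounds were 1624-fold for Cxcl12 and 293-fold for Ccl7.

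A different library led the macrophage chemokines. Ccl6 had 0 counts in B16OVA, against 18.3, 2.32, 6.21, 4.997 and 98.6 CPM in melanocytes 1 to 5 (at least 713-fold lower, and at least 205-fold without library 5, edgeR adjusted p = 0.00804). Ccl3 was at 0 against 2.47, 1.63, 1.64, 0.958 and 38.7 CPM (at least 252.7-fold lower, 46.7-fold without library 5, adjusted p = 0.0157), and Ccl4 at 0 against 3.32, 0.850, 0.518, 0.650 and 28.7 CPM (at least 187-fold lower, 34.8-fold without library 5, adjusted p = 0.0219). Library 5 was far above the other 4 in these. Ccl9 (log2 fold change -8.51, adjusted p = 0.00693), Cxcl16 (-9.79, adjusted p = 0.0029) and Ccl20 (-6.11, adjusted p = 0.00307) were lower as well. Cxcl14 was at 0 against 120, 0.883, 1.81, 0.137 and 16.3 CPM (at least 654-fold lower, and 126.9-fold without library 1, adjusted p = 0.0385). Cxcl15 was at least 16.97-fold lower (10.7-fold without library 4, adjusted p = 0.00983). The Cxcl14 and Ccl4 calls were lost without any 1 of the 3 B16OVA libraries, with log2 fold changes of -12.64 to -12.77 for Cxcl14 and -10.42 to -10.52 for Ccl4, close to the -12.73 and -10.47 of all libraries. Ccl25, Ccl27a, Ccl28, Cx3cl1 (adjusted p = 0.0836) and Cxcl1 (adjusted p = 0.0931) were not called.

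Markers of other cells moved with these genes. The macrophage gene Csf1r was 117, 11.3, 6.08, 4.04 and 597 CPM in melanocyte libraries 1 to 5 and at most 0.03 CPM in B16OVA, and C1qa was 127, 0.360, 2.5, 4.96 and 253.7 CPM against 0. The fibroblast gene Col1a1 was 5879, 814, 216, 446 and 75.9 CPM, against 1.55 to 3.17 CPM in B16OVA. Over the whole lists, 11 macrophage genes summed to 248 to 7337 CPM in melanocytes and 4.16 to 7.63 CPM in B16OVA WT, and 9 fibroblast genes to 183 to 18316 CPM and 18.9 to 28.8 CPM. Keratinocyte genes summed to 2.67 to 64.7 CPM, and 5 of 8 T-cell genes were at 0 in every melanocyte library. The melanocyte enzyme Dct was 3836, 16992, 16683, 20553 and 13905 CPM, lowest in library 1, where the fibroblast sum was highest. The part of these cells in the differences was not tested. Interferon-response genes were lower in B16OVA in 15 of 21 tested and chemokine receptors in 6 of 8, beside 19.5% of all genes. As with the ligands, receptors and interferon-response genes that are high in melanocytes can pass the low-count filter through them. Neither count supports anything by itself.

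**Figure D4:**
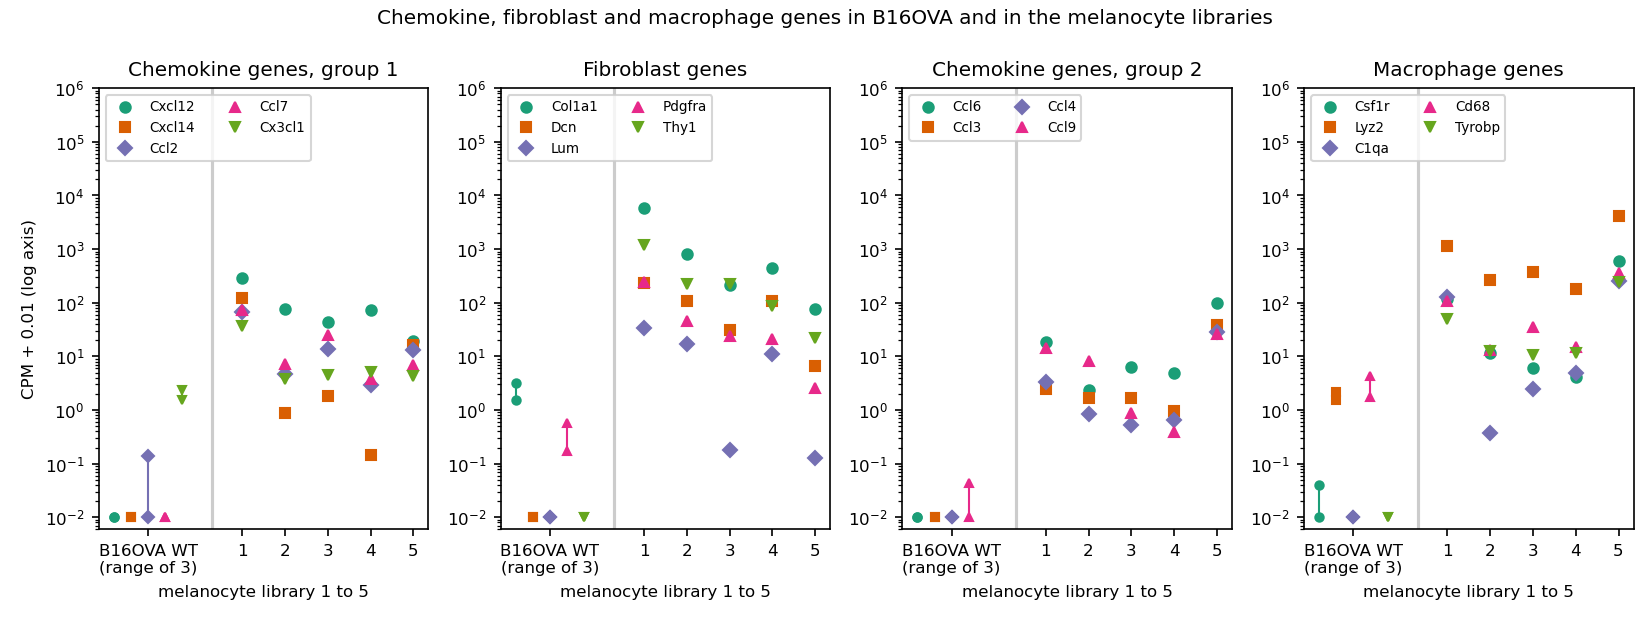
Chemokine genes beside fibroblast and macrophage genes in melanocyte libraries 1 to 5 (log axis, CPM + 0.01), with the range over 3 B16OVA WT libraries of the same run on the left of each panel. Library 1 is highest for Cxcl12 (288 CPM), Ccl2 (65.9 CPM) and Col1a1 (5879 CPM), and library 5 for Ccl3 (38.7 CPM), Ccl6 (98.6 CPM) and Csf1r (597 CPM).

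In healthy tissues 32 of the 37 chemokine genes reached a mean of 1 CPM somewhere, and 31 of 34 tested were highest in 1 tissue (edgeR adjusted p under 0.05, highest mean, and 2 or more on the log2 scale above the average of the other tissues), against 59.3% of 26242 genes. Many members passed the low-count filter through the tissue in which they are high. Lymph node held 12 of the 34 (3.08% of all genes were highest there), spleen 5 (4.0%), thymus 4 (6.67%), lung 3 (4.46%), brain 2 (12.2%), liver 2 (4.34%), stomach 2 (1.92%) and colon 1 (4.26%). Heart (4.06%), kidney (3.89%), ovary (4.84%) and skin (5.56%) held 0. Of the 12 in lymph node, Ccl7 was close, at 4.81 ± 1.63 CPM there and 4.45 ± 0.458 CPM in skin, with overlap. Without library set 4, described below, Ccl7 was called highest in skin. In bulk tissue, more cells of a type and more RNA per cell cannot be told apart. Summed over members, lung had 2585 CPM and lymph node 2333 CPM, and heart was lowest with 256 CPM. Values below are means ± SD of 4 libraries.

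The ligands that guide cells into lymphoid tissue were led by Ccl21a, a ligand of Ccr7, at 786 ± 133 CPM in lymph node, 345.05 ± 83.3 CPM in thymus and 208 CPM in spleen. Per kilobase its 904 CPM in lymph node was the highest of any member in any tissue. Its near-identical copy Ccl21b had almost no counts, so the split of reads between the 2 is uncertain. Ccl19, the other Ccr7 ligand, was 60.99 ± 7.83 CPM in lymph node and 35.0 ± 8.65 CPM in spleen. Cxcl13, which draws B cells through Cxcr5, was 178 ± 27.1 CPM in lymph node and 146 ± 17.6 CPM in spleen, and the libraries of these 2 tissues overlapped. Ccl22, a Ccr4 ligand made by dendritic cells, was 172 ± 33.6 CPM in lymph node and 72.2 ± 5.69 CPM in thymus. Ccl5 was 241 ± 40.1 CPM in lymph node and 84.5 ± 12.4 CPM in spleen.

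Thymus was marked by Ccl25, ligand of Ccr9, with 597, 364, 483 and 363 CPM in library sets 1 to 4. Its mean of 452 ± 112 CPM was 42.0-fold that of colon, the next tissue (10.8 ± 1.72 CPM; log2 fold change against the other 11 tissues 5.63, SE 0.10, edgeR adjusted p = 4.73e-35). Ccl20 was 4.99 ± 1.51 CPM in thymus and 1.86 ± 1.28 CPM in colon, with overlap. Cxcl2, a neutrophil chemokine, was low but also highest in thymus (1.35 ± 0.173 CPM). Spleen led Cxcl10, with 35.9 ± 4.68 CPM against 27.1 ± 7.77 CPM in thymus with overlap, and Ccl3, Ccl4, Ccl24 and Cxcl5 at 1.20 to 4.37 CPM. Spleen libraries overlapped with those of the next tissue for Ccl3 (lung), Ccl4 (lymph node) and Ccl24 (skin). The inflammatory Cxcl1 was low in every tissue; liver, its highest, had 9.002, 2.36, 1.09 and 1.88 CPM in sets 1 to 4, so its mean of 3.58 ± 3.65 CPM rests on 1 library.

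Other ligands had their highest level in barrier and parenchymal organs. Cxcl15, known as lungkine in the mouse, was 1575 ± 156 CPM in lung, 857-fold the 1.84 ± 2.28 CPM of lymph node, the next tissue. Lymph node libraries were uneven in it, at 0.235, 2.13, 4.95 and 0.035 CPM in sets 1 to 4, and so were they in Cxcl14 at 2.35, 9.67, 43.4 and 0.163 CPM. Cxcl14 was highest in lung (310, 188, 179 and 198 CPM). Ccl17, a Ccr4 ligand, was 9.74 ± 3.13 CPM in lung and 3.42 ± 0.635 CPM in thymus. Ccl6 was 532 ± 108 CPM in colon and 163 ± 38.01 CPM in lung. Cxcl17 was 58.5 ± 9.55 CPM in stomach and 29.3 ± 12.1 CPM in lung. The eosinophil chemokine Ccl11 was 29.3 ± 6.41 CPM in stomach and 21.8 ± 2.62 CPM in thymus, with overlap. Ccl9 was 81.1 ± 4.24 CPM in liver and 25.9 ± 7.04 CPM in colon. Cx3cl1, made by neurons in brain, was 152, 302.4, 474 and 86.6 CPM there and 106 ± 26.0 CPM in colon, with overlap. Ccl27a was 43.9 ± 7.55 CPM in brain and 16.6 ± 1.63 CPM in skin. Cxcl12 was widely spread, at 71.9 CPM or more by mean in all 12 tissues and 577 ± 96.3 CPM in spleen, and was not called. Cxcl16 fell short of the fold minimum, with 1.86 in lymph node.

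Of the 23 receptors, 21 were highest in 1 tissue (59.3% of all tested genes were), 7 of them in lymph node (3.08%), 4 each in spleen (4.0%) and thymus (6.67%), 3 in lung (4.46%), and 1 each in brain, heart and skin. The low-count filter acts on receptors as on the ligands. Ccr9, receptor of Ccl25, was 515 ± 164 CPM in thymus. Ccr7, receptor of Ccl21a and Ccl19, was 232 ± 35.7 CPM in lymph node, and Cxcr5, receptor of Cxcl13, was 210 ± 24.4 CPM in spleen. Cxcr4, receptor of Cxcl12, was 297 ± 42.9 CPM in thymus. These pairings describe levels in bulk tissue and were not tested.

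Ccl28, which attracts plasma cells to mucosa, varied by library set. It was higher in library set 4 than in the other sets in 11 of 12 tissues. In liver it had 312.7 CPM in set 4, against 0.110, 0.203 and 0.235 CPM in sets 1 to 3. In ovary the values were 551 CPM in set 4 against 2.496, 5.24 and 2.63 CPM, and in skin 191 CPM against 2.3, 2.93 and 1.60 CPM. The excess over the next set ran from 4.37-fold in kidney to 1331-fold in liver. Colon was the exception, with 143 CPM in set 4 against 60.3, 74.7 and 150 CPM. Set 4 libraries had between 1760 and 40243 counts of the gene, so counting error is small beside this gap.

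A contrast of set 4 with the mean of the other sets within tissue was added after these values were seen. It gave Ccl28 a log2 fold change of 6.57 (SE 0.41, edgeR adjusted p = 1.74e-13), rank 1 of 26242 genes by size and by F statistic; the next largest was 5.19. It was the 1 member of 34 called by that contrast, where 0.64% of all genes were called, and the 1 of 34 called by an F test over the 4 sets (0.739%). In the 4 tissues whose set 4 library is from run D812 the log2 fold change was 7.76 (SE 0.85, adjusted p = 0.0204), and in the 8 whose set 4 library is from run D804 it was 6.09 (SE 0.41, adjusted p = 5.35e-10). The median log2 ratio of set 4 to the highest other set was 5.68 for Ccl28 and 1.07 for the next gene. What set 4 shares besides its place in the library numbers is not given in the labels, and no cause was tested.

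Ccl28 lies on GRCm38 chromosome 13 from 119623819 to 119654359 on the plus strand. Of 12 tested neighbours within 250 kb, 10 were not called in the contrast of set 4 with the mean of the other sets, among them Paip1, Nnt, Hmgcs1, Nim1k and Zfp131. Gm48342, an antisense gene at 0.159 CPM by mean in set 4, was higher in it (1.75, SE 0.33, edgeR adjusted p = 0.00554). Tmem267, which ends upstream of Ccl28 on the same strand, was called lower in set 4 (-0.55, SE 0.09, edgeR adjusted p = 0.000962), opposite to Ccl28. It averaged 6.65, 10.1, 4.46 and 4.48 CPM in sets 1 to 4, so set 4 was level with set 3. Tmem267 was higher in set 2 in 12 of 12 tissues (0.95, SE 0.08, edgeR adjusted p = 1.13e-09). 3110070M22Rik, which overlaps Tmem267 on the opposite strand, averaged 0.839, 1.06, 0.57 and 0.619 CPM in sets 1 to 4 and was called higher in set 2 (0.69, SE 0.09, adjusted p = 3.12e-05). Without set 4, where 59.5% of genes were highest in 1 tissue, Ccl28 was highest in colon and called there, with a log2 fold change of 6.45 against the other 11 tissues. With set 4 its highest mean was in ovary, 140 ± 274 CPM, and it was not called in any tissue.

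**Figure D5:**
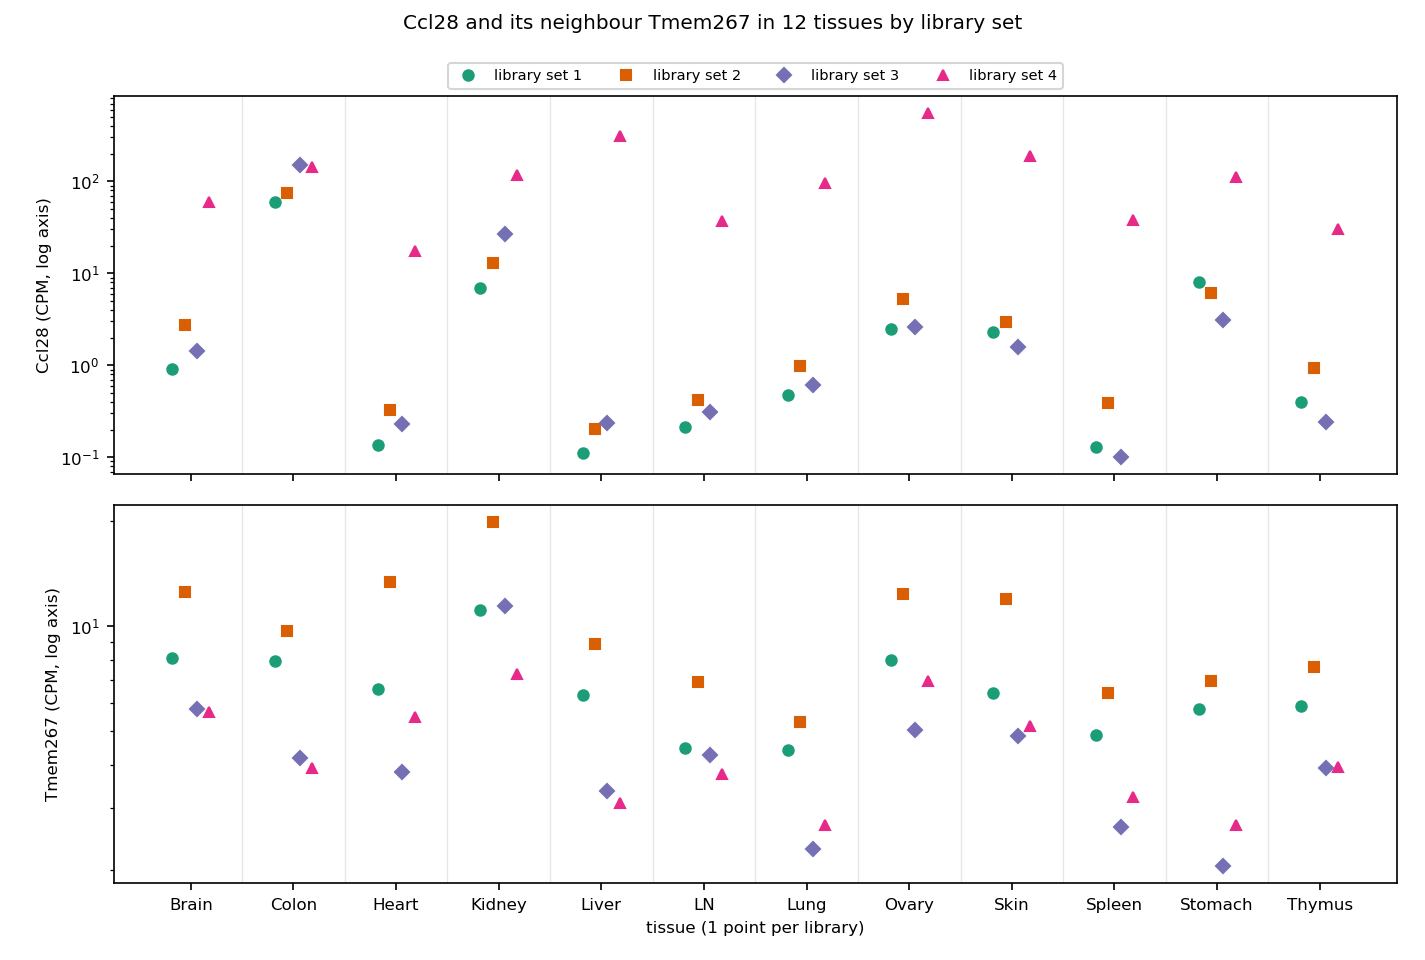
Ccl28 and its upstream neighbour Tmem267 in 12 tissues (log axis, CPM; each point 1 library; colour and shape give the library set). Ccl28 in set 4 is above the other sets in every tissue but colon, where set 3 has 150 CPM and set 4 has 143 CPM, while Tmem267 is highest in set 2 in all 12 tissues.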

How the data were processed

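Poly(A) mRNA libraries were made with Illumina's TruSeq Stranded kit, per the labels' protocols. The submitters' processing notes name Trim Galore, FastQC, STAR, HTSeq and mm10; the sources used here do not give versions, the annotation, the strand setting or the handling of multi-mapped reads. The authors deposited raw counts per Ensembl gene; their second table, which holds each library as a fraction of its total, was not used. Symbols and gene types of 53274 of the 53379 IDs came from GENCODE vM21. Depths are given with the results; at 17186211 counts a floor of 3 counts is 0.175 CPM, and intervals (exact, 95%) and floors cover counting error only. Of 154 pairs of libraries within groups, 0 were identical.

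The tests used edgeR 4.0.16 in R 4.3.3: TMM scaling, filterByExpr with the groups, the quasi-likelihood F test and Benjamini-Hochberg values over all tested genes, with 0.05 as the limit for a call. The 45-library fit had a term per group and per run code of the library titles (16809 genes, 12 members). The 3 B16OVA WT libraries of run D176 and the 5 melanocyte libraries had a fit of their own (15172 genes, 18 members), as had the 48 tissue libraries, with tissue and run (26242 genes, 34 members). The 7 libraries of run B176 were in no fit. Library sets were read from the library numbers, and in run D176 from the place of a library within its condition. Genes named in the lines are called members and, where a knockout comparison called 0, the 3 members of lowest p at a group mean of 1 CPM or more; genes named in tissues lead each tissue. Ccl9 and Ccl4 in the knockout comparisons, and others outside this rule, were named after their values were seen. The members, lists and tests were chosen with earlier results of these data known. The fits were tested on simulated data. There edgeR called 6%, 25%, 3% and 1% of 2-fold changes between KO and Ctrl in B16, B16OVA, MCA101OVA and MC38. It called 51%, 100%, 56% and 58% of 4-fold changes, so a member that was not called may still have changed. Recovery was not tested separately for genes with few counts, such as Ccl9 and Ccl4, or for genes that differ between library sets. These rates are therefore not given for such members.

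Alternatives were RLE size factors, DESeq2 1.42.0, no low-count filter or a minimum of 1 CPM, no run term, WT in place of Ctrl, all 6 B16OVA WT libraries against melanocytes, the groups compared alone, library sets as a replicate block, leaving out the 9 libraries labelled MC38 (added after seeing the data), leaving out libraries with a low slope of log CPM on transcript length (under -0.15), and leaving out each library. The block shared across lines, the block without B16OVA Ctrl replicate 2, without MC38 Ctrl replicate 1 or without libraries of low slope, the tests of library sets and the tissue fit without set 4 were added after seeing the data. The pairing by library set was checked on deviations from group means. Correlations within a set were at least 0.311 in B16, 0.295 in MCA101OVA and 0.112 in MC38. In B16OVA they were at least 0.431 between KO and Ctrl and as low as -0.553 with WT. No correlation between libraries of different sets is given beside these, so they do not establish the pairing. In B16 and MCA101OVA, set 1 is from run B253 and the other sets are from run B262. A difference between runs would therefore enter these values too.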

Additional observations from a re-analysis of the deposited data

Results flagged for a closer look

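Gaps within groups were tested for 64 pairs of a chemokine gene and a group with Dixon's criterion, which flags about 5% of groups by chance. The pairs included Ccl28 by name in all 12 tissues, so the share flagged cannot be set against that 5%. Past the criterion were 23 pairs. In 10 of these the gene was Ccl28 and the library was of set 4, with the highest value of its tissue: 551 CPM in ovary, 312.7 CPM in liver, 191 CPM in skin, 110 CPM in stomach, 95.1 CPM in lung, 60.1 CPM in brain, 37.6 CPM in spleen, 37.3 CPM in lymph node, 30.5 CPM in thymus and 17.7 CPM in heart. No cause was tested.

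Melanocyte library 5 was far above the other 4 for Ccl6 (98.6 CPM), Ccl3 (38.7 CPM) and Ccl4 (28.7 CPM), and library 1 for Cxcl12 (288 CPM), Cxcl14 (120.02 CPM), Ccl2 (65.9 CPM) and Cx3cl1 (36.3 CPM). The macrophage gene Csf1r was 597 CPM in library 5 and the fibroblast gene Col1a1 5879 CPM in library 1, the highest of the 5 in each case; their part was not tested.

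Among B16OVA libraries, replicate 3, of library set 3, stood apart for Cxcl10 at 34.7 CPM in Ctrl and 35.4 CPM in WT, and Ctrl replicate 2 for Ccl27a at 13.4 CPM. In tissues, the liver library of set 4 had 87.4 CPM of Ccl9, the liver library of set 1 had 9.002 CPM of Cxcl1, and the lung library of set 1 had 309.5 CPM of Cxcl14.

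In the libraries of run B176, which enter no comparison, 15 chemokine genes were above the highest of the 45 replicated cultured libraries in at least 1 library, 6 of them at 1 CPM or more. MC38OVA had 375 CPM of Ccl2, 93.5 CPM of Ccl5 and 30.6 CPM of Ccl7, and MC38GFP had 175.01 CPM of Cxcl10, 8.08 CPM of Cxcl1 and 3.08 CPM of Ccl4. Below 1 CPM, MC38OVA had 0.898 CPM of Cxcl9 (36 counts) and 0.873 CPM of Ccl8 (35 counts), MCA101 had 0.241 CPM of Cxcl12 (14 counts), and the other 6 genes had 1 to 4 counts. These are single libraries, and the differences were not tested.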

How the results depend on the processing

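Counts of members called moved by over 1.5 times, or off 0, in 14 cases. In B16 KO against Ctrl, no low-count filter gave 2 calls (Ccl5 and Ccl9) and the replicate block 1 (Ccl9). In B16OVA KO against Ctrl the replicate block gave 1 (Ccl9), and it changed no other count of KO, Ctrl or interaction calls; without B16OVA Ctrl replicate 2 the blocked count in B16OVA was 0, and without libraries of low length slope it was 0 in each line. Lines also share library set numbers. Correlations of WT deviations within a set were 0.582 to 0.624 between B16 and B16OVA, but 0.079 to 0.493 between B16OVA and MCA101OVA and 0.015 to 0.092 between B16OVA and MC38. A replicate block shared across lines, chosen after seeing the data, gave 9 calls in MC38 against B16OVA, 8 in MCA101OVA against B16OVA, 0 in B16OVA against B16 and 1 (Cx3cl1) in MC38 against MCA101OVA, which have no set in common. No paired analysis was possible with melanocytes, because they carry no library set. Without the filter, 1 member (Ccl5) was called where the KO effects of B16 and of MC38 were set against that of B16OVA. With the groups compared alone in the fit, which leaves fewer libraries and tests fewer members, MC38 against B16OVA gave 4 calls and MCA101OVA against B16OVA 5, in place of 8 each. MC38 against MCA101OVA gave 1 call (Cx3cl1) with RLE size factors, with DESeq2 and without libraries of low length slope, 2 with no filter (Ccl2 and Cx3cl1) and 2 with no run term (Ccl2 and Ccl7), and could not be fitted alone because the groups share no run. With each library left out in turn it gave 0 to 1, MC38 against B16OVA 6 to 8, MCA101OVA against B16OVA 7 to 8, B16OVA against melanocytes 11 to 14 and the tissues 29 to 32. Over all alternatives the melanocyte count was 10 to 18 and the tissue count 28 to 34.

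Some uncalled differences between KO and Ctrl turned. Without libraries of low length slope, Ccl27a was -0.22, 0.016 and 0.22 on the log2 scale in B16, B16OVA and MCA101OVA, and Ccl5 and Cxcl10 in MC38 were 0.55 and 0.17. The same libraries left out under the replicate block, chosen after seeing the data, gave -0.535 for Ccl5, MC38 KO against Ctrl, and -0.53 for Cxcl10, MC38 KO against Ctrl, so these did not turn within sets. They gave -0.18 for Ccl5, B16OVA KO against Ctrl (0.87 with all libraries and no block), -0.012 for Ccl27a, B16 KO against Ctrl, 0.022 for Ccl27a, B16OVA KO against Ctrl, and 0.026 for Ccl27a, MCA101OVA KO against Ctrl. With each library left out in turn, Ccl27a ran between -0.075 and 0.66 in B16, -0.57 and 0.22 in B16OVA (0.061 without Ctrl replicate 2 under the block), and, for Ccl27a, MCA101OVA KO against Ctrl, -1.28 and 0.19. Ccl5, MC38 KO against Ctrl, ran between -2.27 and 0.55, and Cxcl10, MC38 KO against Ctrl, between -1.33 and 0.17. The cause was not tested. Among 57 values of named genes, the alternatives lost a call 24 times and gained 1. Members under 0.175 CPM in the shallowest library rest on 3 counts or fewer.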
